A study of Mus musculus with 6 samples.

Results

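The ADAMTS genes encode secreted zinc proteases that carry thrombospondin repeats. The 10 genes described here, *Adamts1*, *Adamts2*, *Adamts4*, *Adamts5*, *Adamts7*, *Adamts8*, *Adamts9*, *Adamts10*, *Adamts12* and *Adamts15*, were taken by symbol from the 20066 genes of the deposited RNA-seq table, and all 10 were found there. The group was chosen by the difference in *Adamts8* between treated and control cultures in these same libraries, so the values of the 10 genes are given as a description and support no test. Total RNA came from 6 cultures of cardiomyocytes (CMs) of newborn (P0-1) C57BL/6 mice without any genetic change, 3 kept for 96 h in the solvent dimethylsulfoxide (DMSO) and 3 kept for 96 h in α-ketoglutarate (αKG), a metabolite of the Krebs cycle, in a form that enters cells and at a labelled 100 µM. The methods describe growth on fibronectin in serum-containing medium and no sorting step, so other heart cells could be present, and in such bulk RNA fewer cells of a type and less RNA per cell cannot be told apart. They also state, in the section on imaging, that a sample of newborn CMs stands for 1 isolation from pooled hearts. The values are whole numbers, reads per gene scaled by the authors to make libraries comparable, called normalized reads below.

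ADAMTS proteases are made as inactive precursors, are cut by furin-type convertases, and then act outside the cell on the matrix. The family falls into groups by substrate: enzymes that cut large proteoglycans such as versican and aggrecan, enzymes that trim the N-terminal end of fibrillar procollagens, a pair that binds cartilage oligomeric matrix protein, and members that bind fibrillin microfibrils. In the heart, versican is a main component of the embryonic cushion and valve matrix, and its turnover by ADAMTS proteases is part of normal development.

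The family relationship can be read at the catalytic site. The zinc ion is held by 3 histidines in the pattern His-Glu-x-x-His followed by 5 residues and the third histidine. In the GENCODE M21 transcripts (GRCm38) each of the 16 ADAMTS genes of the table held exactly 1 in-frame stretch of 33 coding bases with this pattern, and in all 16 an exon junction lay inside it. The stretches of the 10 genes are shown because they let the relatives of *Adamts8* be compared base by base, with the 3 histidine codons in capitals, 5′ to 3′ on the coding strand:
Adamts8: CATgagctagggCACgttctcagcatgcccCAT
Adamts15: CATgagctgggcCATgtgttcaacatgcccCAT
Adamts4: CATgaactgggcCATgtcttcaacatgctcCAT
Adamts1: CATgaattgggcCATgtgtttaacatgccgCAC
Adamts9: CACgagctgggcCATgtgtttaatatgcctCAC
Adamts5: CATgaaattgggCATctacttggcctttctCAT
Adamts2: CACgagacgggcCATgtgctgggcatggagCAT
Adamts7: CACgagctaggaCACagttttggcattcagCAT
Adamts12: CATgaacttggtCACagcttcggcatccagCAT
Adamts10: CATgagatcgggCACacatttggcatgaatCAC

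*Adamts15* shared 27 of 33 bases with *Adamts8*, the most of the other 9, and *Adamts4* shared 25, against 21 to 23 for the remaining members. At codon 8 of the stretch, 4 members (*Adamts1*, *Adamts4*, *Adamts9*, *Adamts15*) had an asparagine codon, 5 had a glycine codon, and *Adamts8* had the serine codon AGC. In *Adamts8* the stretch lies in exons 3 and 4 of 9 of transcript ENSMUST00000068135.12, at chr9:30952721-30953378 on the plus strand. In *Adamts15* it lies in exons 2 and 3 of 8, at chr9:30911255-30911690 on the minus strand.

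The depth was similar in the 6 libraries. Totals of normalized reads lay between 4069900 and 4168009, and the estimated reads in genes between 3725428 and 4428655. The libraries did not fall cleanly by treatment: DMSO libraries correlated with each other at 0.983 to 0.984 (Pearson, log2 values across genes, which are not independent replicates), αKG replicates 1 and 2 at 0.978, but αKG replicate 3 at 0.962 and 0.963 with its own group and at 0.977 to 0.98 with the DMSO libraries. The values of αKG replicate 3 are therefore given beside those of the other libraries. Differences are on the log2(value + 1) scale, αKG minus DMSO, with the standard error (SE) of a limma fit over all genes, and group values are means ± SD of n = 3.

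*Adamts8* (ENSMUSG00000031994, chr9:30942562-30963838, plus strand) encodes a protease for which angiogenesis-inhibiting activity is known. It was listed at 31, 35 and 22 normalized reads in DMSO replicates 1 to 3 and at 270, 260 and 129 in αKG replicates 1 to 3. The groups did not overlap, and the lowest αKG library lay well above the highest DMSO library. The means were 29.3 ± 6.66 and 220 ± 78.7, a 7.49-fold ratio, and the fitted difference was 2.81 ± 0.29 (SE). Compared with the DMSO mean, αKG replicates 1, 2 and 3 were higher by 3.18, 3.13 and 2.12 on the log2 scale. On that scale the library that resembled the controls still carried most of the difference. In normalized reads it held 129 against 270 and 260. With 23.2 to 37.8 estimated reads per DMSO library, the DMSO level rests on few reads. By fitted difference *Adamts8* stood at rank 22 among all 20066 genes.

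*Adamts15* (chr9:30899155-30922452, minus strand), which encodes a versican- and aggrecan-cutting enzyme, is the neighbour of *Adamts8*: the genes point away from each other and lie 20.1 kb apart, with no other listed gene between them. The DMSO libraries held 100, 82 and 57 normalized reads and the αKG libraries 180, 164 and 122. All αKG libraries were above all DMSO libraries, but with a smaller step (0.97 ± 0.22, 1.95-fold by means) than for *Adamts8*.

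**Figure D1:**
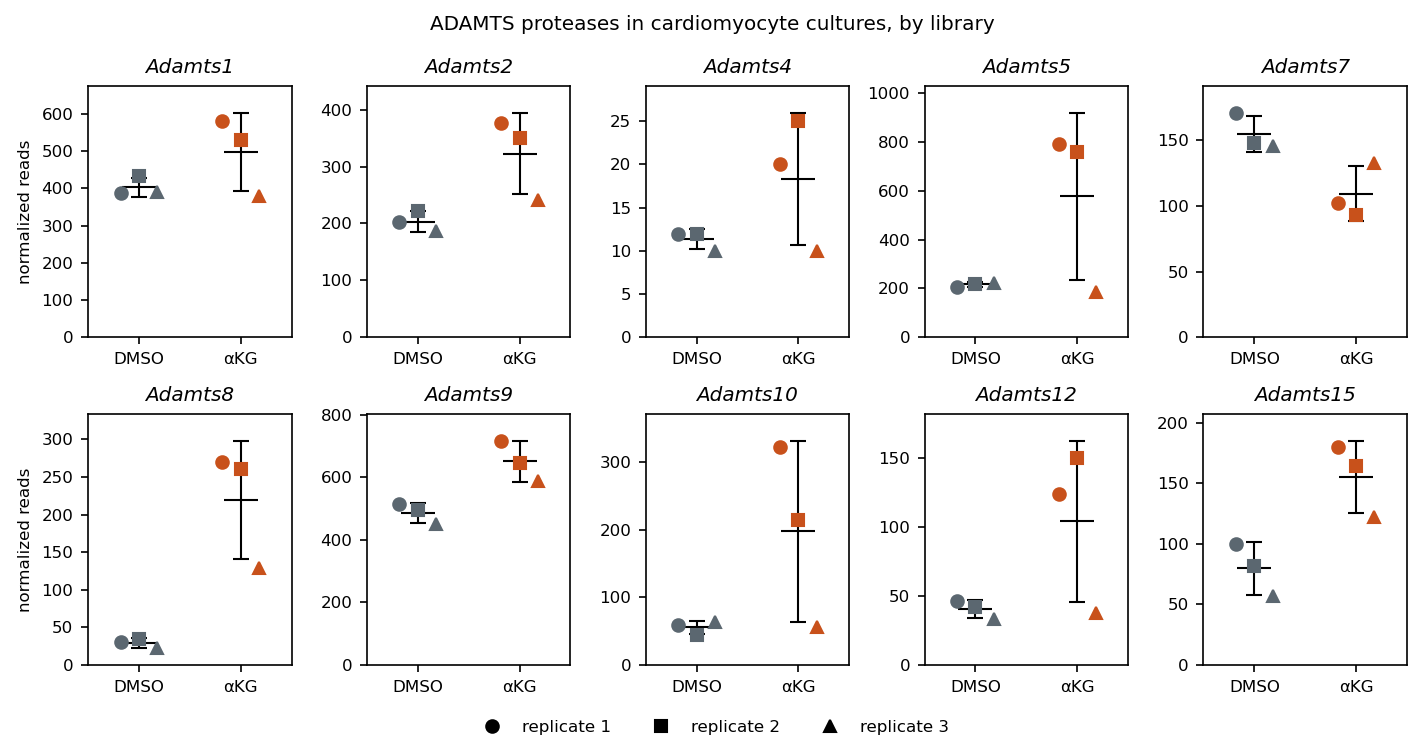
Normalized reads of the 10 ADAMTS genes (y axis, from 0, a scale for each gene) in the DMSO and αKG libraries (x axis). Points are libraries, with the replicate number given by the symbol, and black bars are the mean and SD of n = 3. *Adamts8*, *Adamts9*, *Adamts2* and *Adamts15* were higher in all 3 αKG libraries, while for *Adamts5*, *Adamts10*, *Adamts12*, *Adamts1* and *Adamts4* αKG replicate 3 lay within or just below the DMSO range.

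Among the other proteoglycan-cutting enzymes, *Adamts9* and *Adamts1* were the most abundant and moved little. *Adamts9* (chr6:92772699-92943492, minus strand), a versican-cutting enzyme with a role in heart development, had 514, 494 and 449 normalized reads in DMSO and 717, 647 and 588 in αKG. The groups did not overlap, and the difference was 0.42 ± 0.09. *Adamts1* (chr16:85793827-85803113, minus strand), a versican-cutting enzyme that also inhibits angiogenesis, had 388, 432 and 389 in DMSO and 582, 531 and 380 in αKG. αKG replicate 3 was below every DMSO library, so the groups overlapped, and the difference was 0.28 ± 0.14.

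*Adamts5* (chr16:85856173-85901828, minus strand), a main aggrecanase of cartilage, showed the widest split between αKG libraries in reads. It had 206, 220 and 224 normalized reads in DMSO and 792, 759 and 184 in αKG. Replicates 1 and 2 were thus 1.87 and 1.80 above the DMSO mean on the log2 scale, and replicate 3 was below every DMSO library, at -0.23. The fitted difference of 1.15 ± 0.45 lay between these values and close to none of them. *Adamts5* lies 53.1 kb from *Adamts1* on the same strand with no listed gene between them. In αKG replicate 3 both were below every DMSO library, as was *Adamts7* on chromosome 9. *Adamts4*, *Adamts10* and *Adamts12*, also on other chromosomes, were within the DMSO range in that library.

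*Adamts4* (chr1:171250421-171260637, plus strand), the other classical aggrecanase, was near the limit of the depth. It had 12, 12 and 10 normalized reads in DMSO and 20, 25 and 10 in αKG, which correspond to 10.5 to 22.3 estimated reads per library. αKG replicate 3 equalled the lowest DMSO library, and the difference of 0.56 ± 0.38 is small beside the spread of the αKG libraries.

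*Adamts2* (chr11:50602084-50807573, plus strand), the procollagen N-proteinase whose loss gives fragile skin, was higher in every αKG library. The DMSO values were 202, 222 and 186 normalized reads and the αKG values 377, 350 and 242. The difference was 0.64 ± 0.16, and αKG replicate 3 was nearest to the controls, at 0.25 above the DMSO mean.

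The pair that binds cartilage oligomeric matrix protein went in opposite directions. *Adamts7* (chr9:90163069-90208071, plus strand), an enzyme also studied in smooth muscle cells of arteries, was the only one of the 10 that was lower after αKG, with 171, 148 and 146 normalized reads in DMSO and 102, 93 and 133 in αKG. The groups did not overlap and the difference was -0.51 ± 0.16. *Adamts12* (chr15:11064790-11349231, plus strand) had 46, 42 and 33 in DMSO and 124, 150 and 38 in αKG. It was high in αKG replicates 1 and 2 and inside the DMSO range in replicate 3, with a difference of 1.14 ± 0.43.

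*Adamts10* (chr17:33524204-33553782, plus strand), which binds fibrillin and is mutated in a syndrome with short stature and lens defects, had the second-highest fitted difference of the 10, at 1.50 ± 0.51. The DMSO libraries held 59, 45 and 63 normalized reads and the αKG libraries 323, 215 and 56. The replicates 1 and 2 were 2.53 and 1.94 above the DMSO mean on the log2 scale, whereas replicate 3 was at 0.02.

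Over the 10 genes, 9 had a positive fitted difference, and the median was 0.81, or 0.64 over the 9 without *Adamts8*, beside 0.04 over all 20066 genes. At a Benjamini-Hochberg adjusted p under 0.05 in limma, 3 of the 10 were called, *Adamts8*, *Adamts9* and *Adamts15*, all higher in αKG, beside 3.78% of all genes called in either direction, 2.83% called higher and 0.952% called lower. This contrast is the one by which the group was brought together, and nothing is read from that count. The groups did not overlap for 5 of the 10, of which 4 were higher and *Adamts7* was lower, beside 28.3% of all genes, 13.7% higher and 14.6% lower. In αKG replicates 1 and 2, 9 of the 10 genes were above every DMSO library, beside 6098 of all 20066 genes. Of these 9 only 4 were so in αKG replicate 3 as well, while 3 were inside the DMSO range and 2 below it. Of the 6098 genes, 45.2% were also above in replicate 3. Without αKG replicate 3 all 10 genes were called, beside 37.2% of all genes, with *Adamts7* again the one that was lower. Without αKG replicate 1 or replicate 2 none was called, as for all genes (0.0%), without DMSO replicate 1 *Adamts8* alone was called (0.758% of all genes), and without DMSO replicate 2 or 3 none was called (0.015% and 0.0199%). Of the 10 genes 3 were called with a filter at a mean of 10 (6.5% of all genes), after quantile normalization (3.19%) and after all libraries were brought to one total (4.56%). With a pseudocount of 0.1 (1.72%), the replicate number as a block (0.229%) and limma-voom on estimated reads (1.68%) 1 of the 10 was called, without the variance trend 0 (0.135%), and at an unadjusted p under 0.05 8 of the 10 (28.1%).

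**Figure D2:**
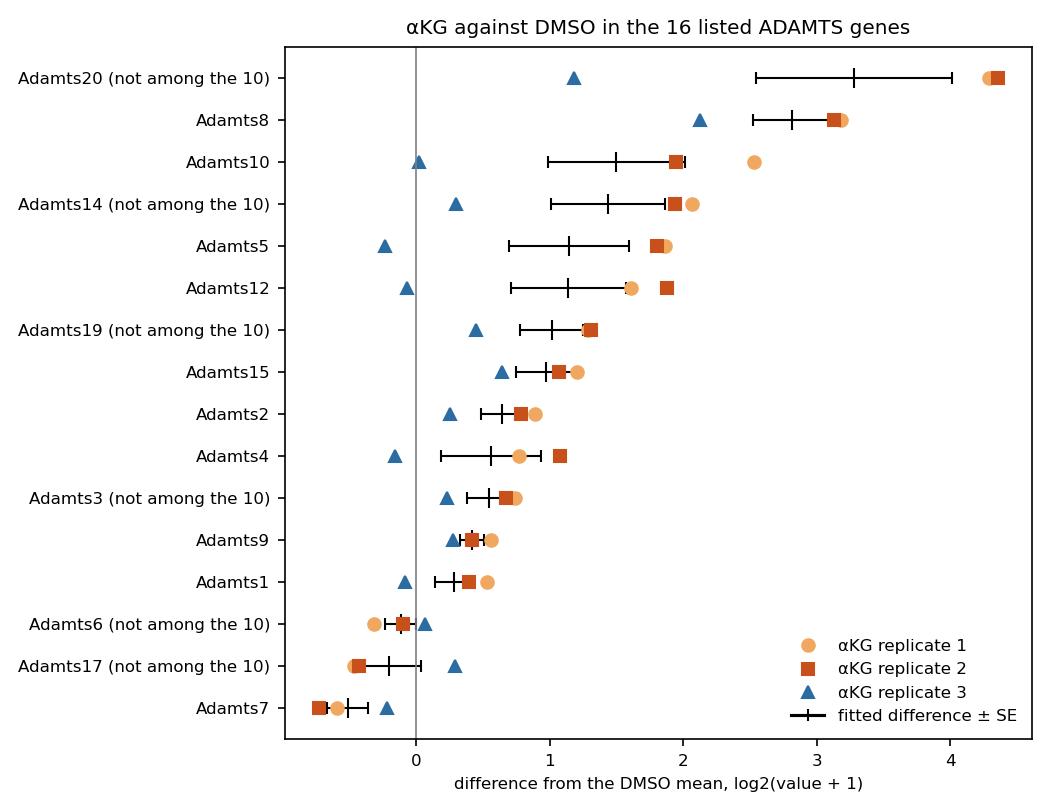
Difference from the DMSO mean on the log2(value + 1) scale (x axis) for the 16 ADAMTS genes of the table (y axis), with a coloured symbol for each αKG library and a black bar for the fitted difference ± SE. *Adamts20* and *Adamts8* are the farthest to the right, and αKG replicate 3 is the leftmost symbol in every gene with a positive fitted difference.

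The levels per length of transcript put the size of these steps in proportion. Values per kb of exon, over all exons of a gene merged, were compared between genes, and only on this scale. In DMSO the order was *Adamts1* (76.0 ± 4.74 normalized reads per kb), *Adamts9* (32.3 ± 2.21), *Adamts7* (24.7 ± 2.21), *Adamts2* (21.8 ± 1.93), *Adamts5* (20.1 ± 0.88), *Adamts15* (7.69 ± 2.08), *Adamts10* (6.74 ± 1.15), *Adamts8* (6.36 ± 1.44), *Adamts12* (3.69 ± 0.61) and *Adamts4* (2.36 ± 0.24). The library ranges of *Adamts7* and *Adamts2*, of *Adamts2* and *Adamts5*, of *Adamts15* and *Adamts10*, and of *Adamts10* and *Adamts8* overlapped, and the other neighbours in the order were apart. In αKG *Adamts8* moved from rank 8 to rank 3, at 47.6 ± 17.1 per kb, behind *Adamts1* at 93.9 ± 19.8 and *Adamts5* at 53.6 ± 31.7. In αKG every pair of neighbours in the order overlapped, so that order is not resolved. *Adamts7* went from rank 3 to rank 7, at 17.4 ± 3.34 per kb.

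**Figure D3:**
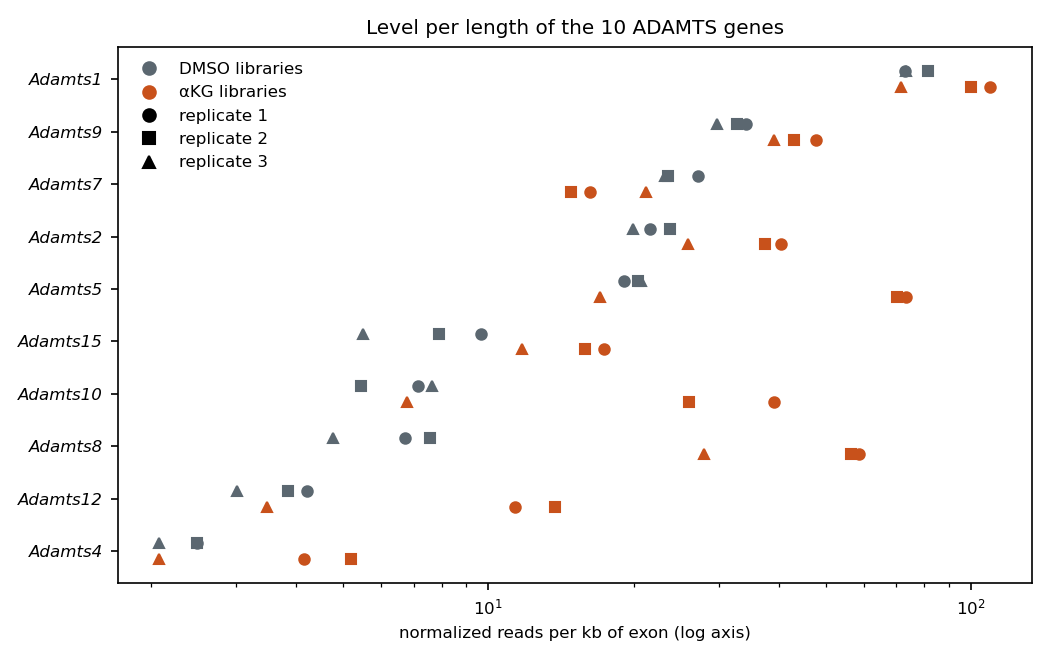
Normalized reads per kb of merged exon (x axis, log scale) of the 10 ADAMTS genes (y axis, ordered by the DMSO mean), with grey points for DMSO and orange points for αKG libraries and the replicate number given by the symbol. *Adamts8* is low in DMSO and in αKG reaches the levels of *Adamts9* and *Adamts2*, with αKG replicate 3 at 28.0 per kb.

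The 6 further ADAMTS genes of the table were tested with all genes. *Adamts20*, a versican-cutting enzyme known from pigment cell development, rose from 10, 9 and 20 normalized reads in DMSO to 258, 270 and 29 in αKG, by 3.28 ± 0.73 (limma, adjusted p = 0.0445), a larger fitted difference than that of *Adamts8*. αKG replicate 3 was thus just above the highest DMSO library and far below the other αKG libraries. *Adamts19*, a gene known from heart valve disease, rose from 57, 46 and 53 to 128, 130 and 71 (1.02, adjusted p = 0.049). The other procollagen N-proteinases did not pass: *Adamts3* differed by 0.55 (adjusted p = 0.0825) and *Adamts14* by 1.44 (adjusted p = 0.0816), although for both, as for *Adamts2*, every αKG library was above every DMSO library. *Adamts6* (-0.12, adjusted p = 0.537) and *Adamts17* (-0.20, adjusted p = 0.596), enzymes linked to fibrillin microfibrils, did not pass, and their library ranges overlapped. In αKG replicate 3 *Adamts17* was above every DMSO library, at 68 normalized reads against 49 to 60, whereas in replicates 1 and 2 it was below them, at 40 and 41. Of the 16 ADAMTS genes, 13 were above every DMSO library in αKG replicates 1 and 2, beside 6098 of all 20066 genes. In αKG replicate 3 too it was 8 of these 13, beside 45.2% of the 6098.

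Of the 7 ADAMTS-like genes, which encode related matrix proteins that lack the protease domain, 2 rose and none fell, beside 2.83% of all genes called higher and 0.952% called lower. *Adamtsl1* had 61, 52 and 59 normalized reads in DMSO and 111, 95 and 90 in αKG (0.77, limma adjusted p = 0.0378). *Adamtsl5* had 132, 173 and 176 in DMSO and 275, 264 and 227 in αKG (0.68, adjusted p = 0.0374). Both were thus higher in all 3 αKG libraries, replicate 3 included. All 7 fitted differences were positive, with a median of 0.68. With limma-voom, with the replicate block and without the variance trend 0 of the 7 were called, and with a pseudocount of 0.1 it was 1. Without αKG replicate 3 it was 6, beside 37.2% of all genes.

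Proteases of the related metalloproteinase families were compared as background to the *Adamts8* difference. Of the 11 matrix metalloproteinase genes in the table, 2 rose and none fell, with a median difference of 0.52, against the same 2.83% and 0.952% of all genes. *Mmp16*, a membrane-type enzyme, went from 28, 25 and 26 normalized reads to 69, 86 and 43 (1.24, limma adjusted p = 0.0415). *Mmp23* went from 61, 54 and 67 to 138, 111 and 85 (0.84, adjusted p = 0.0478). Of the 8 catalytic ADAM genes, which encode membrane-anchored relatives, 1 rose and none fell, with a list median of 0.19. This was *Adam33*, at 2, 3 and 5 normalized reads in DMSO and 66, 38 and 13 in αKG (11.7-fold by means, adjusted p = 0.0303), at levels near the limit of the depth.

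None of the genes that activate, inhibit or clear ADAMTS proteases passed the test. Among 4 convertases, *Furin* differed by -0.01 (limma adjusted p = 0.936) and *Pcsk7* by -0.27 (adjusted p = 0.123), and the list median was 0.07. Among 5 inhibitors and clearance genes, *Timp3*, the inhibitor that binds ADAMTS enzymes most strongly, had 1092, 1137 and 1075 normalized reads in DMSO and 1917, 1882 and 1140 in αKG (0.54, adjusted p = 0.0862). *Lrp1*, an endocytic receptor that takes up several ADAMTS enzymes, had 799, 791 and 691 in DMSO and 2417, 2207 and 866 in αKG (1.13, adjusted p = 0.0686). For both genes all αKG libraries were above all DMSO libraries, with replicate 3 close to them. At an unadjusted p under 0.05, 2 convertases and 2 inhibitors or clearance genes passed, beside 28.1% of all genes. With limma-voom 0 and 0 passed the adjusted test. Without αKG replicate 3 it was 3 and 3, beside 37.2% of all genes, with *Pcsk7* lower and the others higher.

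Of the substrates, versican itself rose. *Vcan* had 482, 460 and 426 normalized reads in DMSO and 750, 732 and 609 in αKG. The difference was 0.61 ± 0.10 (limma adjusted p = 0.0193). Of 5 hyalectan and link protein genes only *Vcan* passed, beside 2.83% of all genes called higher. Among 13 other substrates and partners 1 was called higher, beside the same 2.83% of all genes, and 12 did not pass. The called gene was *Fbn2*, which encodes fibrillin-2. It rose from 1707, 1753 and 1549 to 2626, 2296 and 1994 (0.46, limma adjusted p = 0.0385). All 13 fitted differences were positive, with a median of 0.60, beside 10611 positive ones among all 20066 genes. At an unadjusted p under 0.05, 8 of these 13 and 1 of the 5 passed, beside 28.1% of all genes. With limma-voom it was 0 and 1, beside 1.68%. Without αKG replicate 3 it was 10 and 2, all higher, beside 37.2%. The collagens cut by *Adamts2* did not pass with all libraries, and are named here after their values were seen. *Col1a1* had 1018, 1006 and 951 normalized reads in DMSO and 2402, 2288 and 1042 in αKG (0.85, limma adjusted p = 0.0839).

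The 9 calls in these lists, from *Adamts20* to *Fbn2*, hang on the full set of libraries. All 9 stayed past the threshold without αKG replicate 3 (adjusted p between 0.000636 and 0.00741), and none did without DMSO replicate 1, 2 or 3 or αKG replicate 1 or 2 (adjusted p between 0.0667 and 0.292), where at most 152 genes in all were called.

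**Figure D4:**
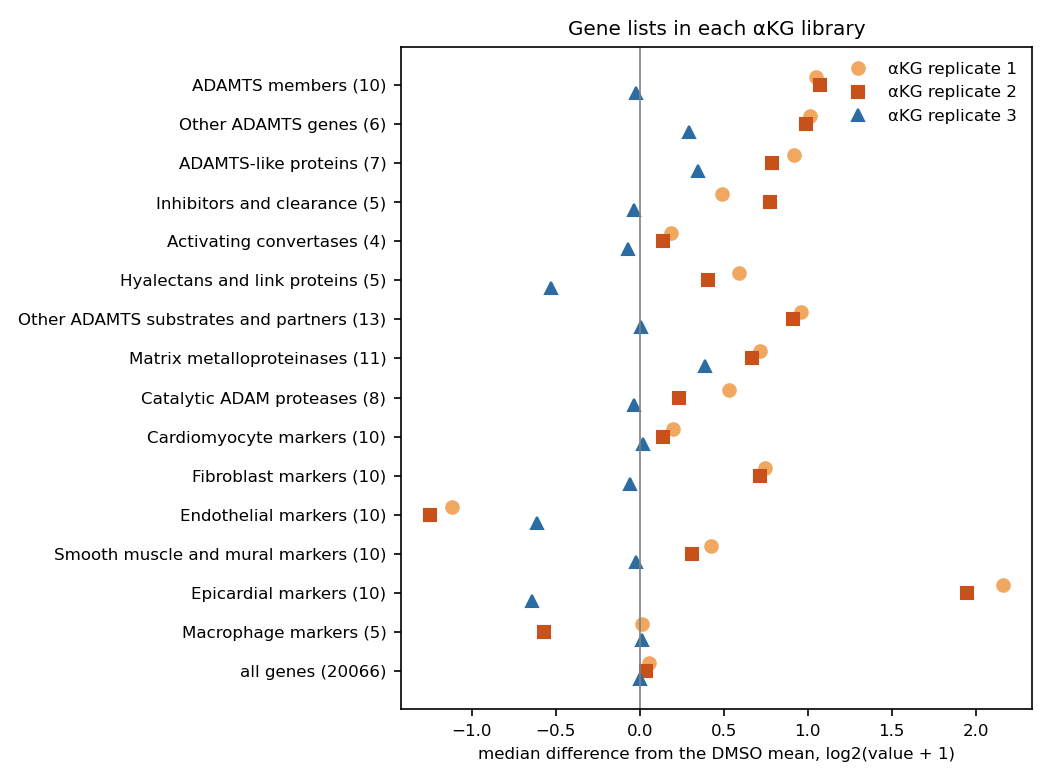
Median difference from the DMSO mean on the log2(value + 1) scale (x axis) over the genes of each list (y axis, with the number of listed genes), in each αKG library. In the ADAMTS genes, the substrates, the fibroblast and the epicardial markers αKG replicates 1 and 2 lie to the right and replicate 3 near or left of 0, whereas the endothelial markers are lower in all 3.

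Markers of the cell types that such cultures can hold were set beside these values. All 10 CM markers were listed, as the label of the cells requires. They summed to 77611 to 80276 normalized reads in DMSO, 110932 and 113941 in αKG replicates 1 and 2 and 82219 in replicate 3. None of them passed the test. At an unadjusted p under 0.05 it was 4, beside 28.1% of all genes, and with limma-voom 0 (1.68%). Without αKG replicate 3 it was 6, 5 of them higher, beside 37.2% of all genes. *Ttn*, which encodes titin, alone gave 51569 to 54216 in DMSO and 55569 to 84136 in αKG. The 10 endothelial markers were also present, with sums of 1641 to 1790 in DMSO and 736 to 1096 in αKG, and 8 of them fell while none rose, beside 0.952% of all genes called lower. With limma-voom and with a pseudocount of 0.1 it was 4 of 10, and with the replicate block and without the variance trend 0. Examples are *Cdh5*, which encodes VE-cadherin (-1.04, limma adjusted p = 0.0181), and *Kdr*, the receptor for VEGF (-1.14, adjusted p = 0.0293). These 8 calls too were lost without any 1 of the 5 libraries other than αKG replicate 3 (adjusted p of the 10 markers between 0.0563 and 0.761), and without αKG replicate 3 9 passed as lower and *Tek*, named after its values were seen, as higher (0.70, adjusted p = 0.0109).

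The sums of epicardial and fibroblast markers, like that of the CM markers, were higher in αKG replicates 1 and 2 than in replicate 3. The 10 epicardial markers summed to 242 to 267 normalized reads in DMSO, to 981 and 943 in αKG replicates 1 and 2, and to 191 in replicate 3, in which 7 of the 10 were below every DMSO library. The 10 fibroblast markers summed to 1565 to 1646 in DMSO, to 2668 and 2635 in αKG replicates 1 and 2, and to 1435 in replicate 3. In replicate 3, 4 of the 10 were above every DMSO library, 3 within their range and 3 below. Of all 20066 genes, αKG replicate 3 was above every DMSO library for 5485, within their range for 9173 and below for 5408. None of the epicardial or fibroblast markers passed the test with all libraries or with limma-voom. At an unadjusted p under 0.05, 2 epicardial and 5 fibroblast markers passed, beside 28.1% of all genes. Without αKG replicate 3 all 10 epicardial and 7 fibroblast markers passed, beside 37.2% of all genes. The 10 ADAMTS genes summed to 1579 to 1732 in DMSO, to 3487 and 3194 in αKG replicates 1 and 2, and to 1882 in replicate 3. *Adamts5*, *Adamts10*, *Adamts12*, *Adamts1* and *Adamts4* were within or below the DMSO range in αKG replicate 3, whereas *Adamts8* stayed 2.12 above the DMSO mean on the log2 scale in that library, in which the median epicardial marker was at -0.64 and the median fibroblast marker at -0.06. Of the 10 smooth muscle and mural markers 2 rose, *Cnn1* (3.17, limma adjusted p = 0.0279) and *Cspg4* (0.66, adjusted p = 0.0362), beside 2.83% of all genes called higher. The sums were 4306 to 4415 in DMSO and 5027, 4613 and 4707 in αKG replicates 1 to 3. *Cnn1* had 5, 10 and 12 normalized reads in DMSO and 119, 167 and 30 in αKG, with replicate 3 at 1.71 above the DMSO mean. In that library 3 of the 10 were above every DMSO library, 5 within their range and 2 below. With limma-voom, the replicate block or no variance trend 0 of these 10 were called. Without αKG replicate 3 it was 5, of which 4 were higher, beside 37.2% of all genes. The calls of *Cnn1* and *Cspg4* were lost without any 1 of the other 5 libraries (adjusted p between 0.129 and 0.264). Of 10 macrophage markers 5 were listed, with sums of 23 to 35 in DMSO and 26 to 41 in αKG and none past the test, at an unadjusted p under 0.05, with limma-voom or without αKG replicate 3. The part of any of these cell types in the ADAMTS values was not tested.

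The 5 genes whose profile over the 6 libraries was most like that of *Adamts8* were not ADAMTS genes. ADAMTS genes are a small part of the genes compared, so their absence from these 5 says nothing about sharing within the family. Profiles were centred on the DMSO mean, and likeness was the root mean square difference on the log2 scale among the 10182 other genes averaging 50 or more normalized reads. The nearest was *Acta1*, which encodes skeletal muscle α-actin, at 0.48, with 68, 78 and 84 normalized reads in DMSO and 429, 481 and 239 in αKG. It was followed by *Casq1*, which encodes the calcium-binding protein calsequestrin of skeletal muscle, at 0.49, by the antisense gene *Gm41505* at 0.53, by *Mybpc2*, which encodes a myosin-binding protein of fast muscle, at 0.56, and by the antisense gene *Hectd2os* at 0.57. In all 5 the values of the 3 αKG libraries were above those of the DMSO libraries, which follows largely from their choice by likeness to *Adamts8*. Within the family, taken here without a limit on the mean, the nearest were *Adamts20* at 0.94, *Adamts14* at 1.02 and *Adamts10* at 1.07, and *Adamts15*, the neighbour and the nearest by sequence at the zinc site, was at 1.32.

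The genes around *Adamts8* on chromosome 9 were compared as well. Of the 10 other listed genes within 500 kb, *Adamts15* alone was called. The widely expressed genes *Zbtb44*, *Aplp2*, *Prdm10*, *Nfrkb* and *Snx19* had differences between -0.10 and 0.09. The pseudogene *Gm47717*, at 2, 2 and 0 normalized reads in DMSO and 10, 4 and 3 in αKG, differed by 1.54 (limma adjusted p = 0.14). *St14*, which encodes the membrane protease matriptase, had 4, 6 and 11 normalized reads in DMSO and 26, 21 and 8 in αKG (1.22, limma adjusted p = 0.15). Beside the *Adamts1* and *Adamts5* pair, the only other listed gene within 500 kb was *Cyyr1*, at 51, 56 and 52 in DMSO and 19, 10 and 42 in αKG (-1.35, adjusted p = 0.0869).

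Some of the 10 genes share exon bases with a gene on the opposite strand, and no source says whether strand was used in counting. This holds for *Adamts7* with *Tbc1d2b* (0.32), for *Adamts9* with *A730049H05Rik* (0.51) and *Gm15737* (0.26), and for *Adamts8* with the antisense gene *Gm29724*, which was not analysed here. The authors left out reads that overlapped several genes, so the levels of these genes are uncertain to the extent of the overlap.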

How the data were processed

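Total RNA of 6 neonatal CM cultures was made into libraries with the SMARTer Stranded kit. According to its methods, single-end reads were trimmed, aligned to mm10 (GRCm38.p5) and counted per gene where they touched exons, without reads that hit more than 1 gene or locus. The submitters' processing notes name Trimmomatic 0.39, STAR 2.7.10a, Picard 2.27.1, featureCounts 2.0.3 and DESeq2 1.30.1. For the deposited values the unit was set as a score, since the authors scaled the reads of each library and then rounded to whole numbers. The plan allowed for raw counts and held limma for normalized values, which was used. The value of 1 read was estimated from the spacing of low values (0.9259 to 1.1188), which gave the estimated reads. It was tested on simulated data.

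limma 3.58.1 (R 4.3.3) was fitted to log2(value + 1) of all 20066 genes, variance trend allowed, treatment as the only term, Benjamini-Hochberg adjustment over all genes. The pseudocount of 1 understates changes of low genes. In simulated reads over 20066 genes with 200 changed, 164 of these were called in the true direction, and 0 others. These counts hold for the simulated libraries only. They give no power or error rate for the deposited libraries, in which αKG replicate 3 resembled the DMSO libraries. There, 0 genes were called without αKG replicate 1 and 7466 without αKG replicate 3. Members and gene lists were chosen with earlier results of these data known. All 10 members are described; of other lists, genes past the threshold (up to 5 by p), or else up to 2 with the highest mean, are named, with up to 2 per marker list, the 5 profiles nearest to *Adamts8*, and neighbours within 500 kb. Coordinates come from the deposited table and matched GENCODE M21, the source of exons and coding sequences, for 99.0% of genes. For 9 symbols used by more than 1 gene, 1 gene was taken. The labels do not say how the replicates were separated, and p-values measure the spread between these libraries. Intervals cover no error of PCR copies. Picard, named in the notes, served in the study to remove copies from reads of another assay, while its RNA-seq methods name no such step. The αKG concentration follows the labels, and the study's methods give another. Alternatives were pseudocount, filter, scaling, variance trend, replicate block, limma-voom on estimated reads, unadjusted p and each library left out. Same-numbered libraries did not deviate together (correlations -0.035, 0.057 and 0.017). One overlap between genes is not reported here.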

Additional observations from a re-analysis of the deposited data

How the results depend on the processing

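At an adjusted p under 0.05, 759 genes were called, and 346 with a pseudocount of 0.1, 27 without the variance trend, 338 with limma-voom on estimated reads and 5648 at an unadjusted p under 0.05. Of the 10 ADAMTS genes, 3 were called, and 1, 0, 1 and 8 under these alternatives. Of the 6 other ADAMTS genes 2 were called, and 0, 0, 0 and 4, and 1 with quantile normalization. Of the matrix metalloproteinases 2 were called, and 0, 0, 0 and 9, and 0 with quantile normalization. Of the ADAM genes 1 was called, and 0 without the trend, 0 with limma-voom and 2 at an unadjusted p. The filter at a mean of 10 and scaling to the same total left each of these counts within 1.5 times. Leaving out 1 library gave 0 to 7466 genes in all, 0 to 10 of the 10 ADAMTS genes, 0 to 4 of the other ADAMTS genes, 0 to 10 matrix metalloproteinases and 0 to 4 ADAM genes, each time with the highest count without αKG replicate 3. The cause of these shifts was not tested.

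With the replicate number as a block, 46 genes were called, 1 of the 10 ADAMTS genes (*Adamts8*), 0 other ADAMTS genes, 0 matrix metalloproteinases and 0 ADAM genes. Same-numbered libraries did not deviate together, but this does not settle whether the numbers mark a pairing, which the labels do not state.

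Single genes were compared under 14 alternatives, of which 1 was the unadjusted p, which every called gene passes. Of 448 values of 32 single genes, 294 kept direction and side of the threshold, 129 lost the call, 22 gained it and 3 turned sign. All 3 were *Furin*, whose difference was 0.006 with quantile normalization and between -0.082 and 0.032 with 1 library left out. *Adamts8* kept a difference between 2.63 and 3.16 and was past the threshold in 9 of 14, the unadjusted p included. It missed it without the variance trend and without DMSO replicate 2, DMSO replicate 3, αKG replicate 1 or αKG replicate 2, with an adjusted p of at most 0.255. Without αKG replicate 3, *Adamts5* differed by 1.84, *Adamts10* by 2.24 and *Adamts20* by 4.33. The median difference of all genes lay between -0.056 and 0.062 over the alternatives. Among the 10 ADAMTS genes *Adamts4* had the fewest estimated reads, 10.5 to 22.3 per library.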
